A study of Homo sapiens with 22 samples.

Results

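Nonsense-mediated decay is the pathway that removes mRNAs whose translation ends too early, and its core is built from the UPF and SMG proteins. The mRNAs of 9 such genes, UPF1, UPF2, UPF3A, UPF3B, SMG1, SMG5, SMG6, SMG8 and SMG9, were picked out by symbol, and all 9 were found among the 58870 gene rows of the siRNA tables and the 57820 rows of the actinomycin D tables. They were followed in 22 RNA-seq libraries of 2 human colorectal cancer cell lines. In the first experiment LS180 cells received siRNA against STAU1 (siSTAU1, n = 2) or the control siRNA siCTRL (n = 2), with 2 transfection periods of 72 h each, and polyadenylated RNA was sequenced. In the second, HCT116 and LS180 cells were kept in actinomycin D, which blocks transcription, at 5 µg/ml for 0, 2 or 4 h (n = 3 for each line and time), and total RNA was sequenced. The labels do not say whether replicates were separate cultures, so p-values here measure the spread between libraries, which may be technical. Both are established lines, so each comparison concerns these lines alone.

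UPF1 is the RNA helicase at the centre of the pathway. UPF2 and the paralogs UPF3A and UPF3B link it to exon junction complexes left on the mRNA by splicing. SMG1 is the kinase that phosphorylates UPF1, and SMG8 and SMG9 are its regulatory partners. SMG5 and SMG6 bind phosphorylated UPF1, and SMG6 is itself an endonuclease that cuts the target. STAU1, a protein that binds double-stranded RNA, also recruits UPF1 to some 3′ UTRs, a route called Staufen-mediated decay. Several of these mRNAs, among them those of UPF1, UPF2, SMG1, SMG5 and SMG6, are reported in human cells to be targets of the pathway they serve.

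Among the mRNAs of the 9 genes, that of SMG8 fell most during actinomycin D in both lines. Its 3′ UTR was also the shortest, at 237 bases in the transcript SMG8-202. It held 1 copy of TATTTAT, a core of AU-rich elements, and the same letters occurred in 7.2% of the 685 human 3′ UTRs within 10% of that length. UPF1 and UPF3A each also held 1 copy, in 3′ UTRs of 1719 and 900 bases, where 37.7% and 22.1% of UTRs of like length did, and neither mRNA was called lower during actinomycin D under TMM scaling. The 3 windows below are shown because they carry the same motif on mRNAs that behaved differently. They are 30 bases long with the motif in capitals, read in the sense of the mRNA from GRCh38 with GENCODE 29 transcripts. They lie at chr17:59215162-59215191 for SMG8, chr19:18867923-18867952 for UPF1 and chr13:114305427-114305456 for UPF3A, all on the plus strand.
SMG8: tatattgttgaTATTTATtgtaaacgtgac
UPF1: gcagggactctTATTTATtcccattgctct
UPF3A: cctggtaggaaTATTTATcagagttcacac
The shorter letters ATTTA occurred 13 times in the 4716-base 3′ UTR of SMG1 and not at all in the 1363-base 3′ UTR of SMG5. Only the mRNA sense of 1 transcript per gene was searched, and each TATTTAT contains an ATTTA. A match is a description of the letters and not evidence of a working site.

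Library totals were 23730047 to 26658699 expected counts in the siRNA experiment and 47842278 to 61417810 in the actinomycin D experiment. No pair of replicates agreed within sampling noise (chi-square per degree of freedom of at least 2.95). The HCT116 libraries numbered 1 stood apart from replicates 2 and 3 at each time. LS180 4 h replicate 1 differed from replicates 2 and 3 by a chi-square per degree of freedom of 70.27 and 133.5, while those 2 differed by 19. Several of the results that rest on these libraries are also given without them. Leaving out the LS180 4 h libraries numbered 2 and 3 keeps replicate 1 alone, which is then assumed to vary like the other groups. Values of those fits that involve LS180 at 4 h are therefore given with no test. Tests from those fits are printed only for comparisons among the other groups. The epithelial markers EPCAM, CDH1, KRT8 and KRT18 were present in every library. VIL1, a marker of intestinal epithelium, reached only 0.0989 CPM (counts scaled to library size) in HCT116, against at least 175 CPM in LS180 of the actinomycin D experiment. CDX2, also on the epithelial list, ranged over 4.19 to 15.1 CPM in HCT116 and 4.51 to 56.0 CPM in LS180 of that experiment. In the siRNA experiment CDX2 ranged over 106 to 126 CPM. The summed mesenchymal markers reached at most 2.22 CPM, the leukocyte markers 4.38 CPM and the endothelial markers 0.428 CPM in any library. In bulk RNA, fewer cells carrying a transcript and less of it per cell cannot be told apart.

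Levels were first ordered by the authors' TPM, which are per transcript length and so allow genes to be compared within an experiment. In siSTAU1 libraries UPF1 (20.4 TPM), UPF3A (20.0 TPM) and SMG5 (19.0 TPM) were the highest and overlapped with their neighbours. In siCTRL libraries SMG5 was highest at 47.7 ± 0.523 TPM, followed by UPF1 at 35.2 TPM, UPF3A at 23.7 TPM and SMG9 at 21.1 TPM, with no overlap between any neighbours in the order. SMG6 and SMG1 stood at the low end in both groups, at 4.59 and 3.91 TPM in siSTAU1 and 6.80 and 5.21 TPM in siCTRL. The span between the highest and the lowest mean was 5.22-fold in siSTAU1 and 9.16-fold in siCTRL.

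At 0 h of actinomycin D the order in HCT116 was UPF1 (11 TPM), SMG5 (10.4 TPM), SMG8 (9.04 TPM), SMG9 (5.83 TPM), UPF2 (5.12 TPM), SMG1 (3.41 TPM), UPF3B (3.25 TPM), UPF3A (2.99 TPM) and SMG6 (1.98 TPM). The libraries of UPF1 and SMG5, of SMG9 and UPF2, of SMG1 and UPF3B, and of UPF3B and UPF3A overlapped. In LS180 the order was SMG5 (13.1 TPM), UPF1 (8.90 TPM), SMG8 (4.49 TPM), SMG9 (4.44 TPM), UPF2 (4.2 TPM), UPF3A (3.67 TPM), UPF3B (2.64 TPM), SMG1 (2.39 TPM) and SMG6 (1.46 TPM). There SMG8, SMG9, UPF2 and UPF3A overlapped with their neighbours, as did UPF3B and SMG1. SMG6, the endonuclease, was thus the lowest member in both lines at 0 h. By 4 h SMG8 had moved to 3.06 TPM, eighth of the order, in HCT116 and to 0.63 TPM, the bottom, in LS180, where it overlapped with SMG6 at 0.677 TPM.

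**Figure D1:**
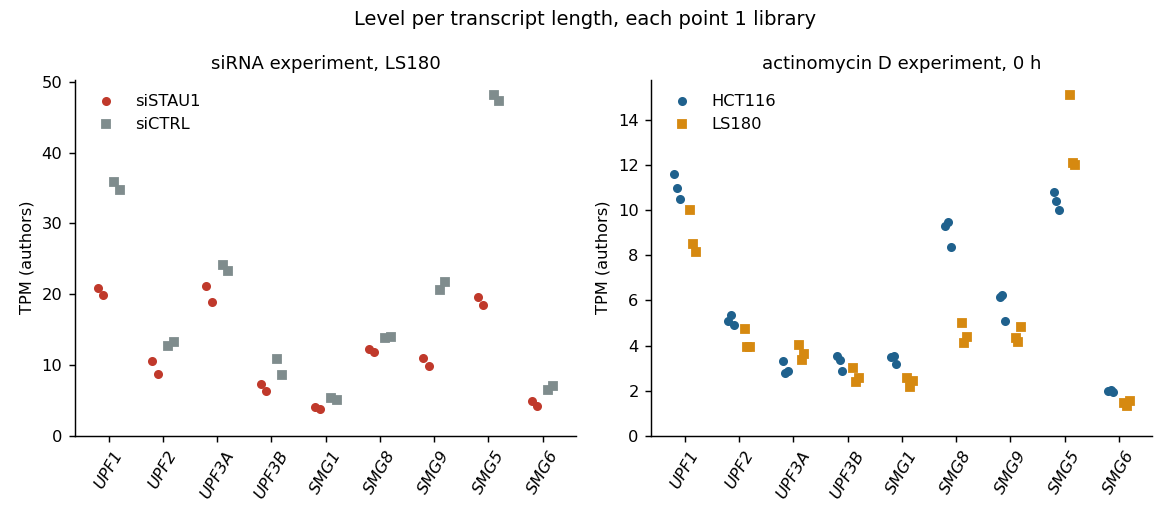
The authors' TPM (y axis) of the 9 genes (x axis), each point 1 library: siSTAU1 beside siCTRL on the left and HCT116 beside LS180 at 0 h on the right, on separate scales. SMG5 and UPF1 lead in siCTRL (47.7 and 35.2 TPM) and SMG6 is lowest in both lines at 0 h (1.98 and 1.46 TPM).

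The knockdown comparison sets these mRNAs after siSTAU1 against siCTRL in LS180. With these groups alone, loss of STAU1 and other effects of the siRNA cannot be told apart. STAU1 itself had 9.70 and 9.17 CPM in siSTAU1 libraries, against 144 and 141 CPM in siCTRL libraries. It fell to 6.62% of siCTRL (log2 fold change -3.92 ± 0.06 SE, edgeR quasi-likelihood adjusted p = 2.15e-12). Here and below CPM are scaled by edgeR's TMM factors, and a gene is called when its edgeR quasi-likelihood p, adjusted over all genes tested, is under 0.05.

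After siSTAU1, 7 of the 9 mRNAs fell and 0 rose. Over all 14073 genes tested 23.0% fell and 46.1% were called in either direction, so a call by itself was common. All 9 genes had both siSTAU1 libraries below both siCTRL libraries, as did 36.9% of all genes. The median log2 fold change of the 9 was -0.43, beside 0.00 over all genes. SMG5 and SMG9 fell most, UPF1 and SMG6 came next, and SMG8 and UPF3A did not pass the test.

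SMG5, the adaptor that binds phosphorylated UPF1, had 67.3 and 66.5 CPM in siSTAU1, against 159.3 and 154.7 CPM in siCTRL. It fell to 42.6% of siCTRL (edgeR adjusted p = 1.5e-09; log2 fold change -1.23 ± 0.04 SE), and 0.902% of genes had a lower value. SMG6, the endonuclease, had 16.96 and 15.6 CPM in siSTAU1, against 23.15 and 25.15 CPM in siCTRL. It fell to 67.5% of siCTRL (-0.57 ± 0.08 SE, edgeR adjusted p = 0.000119). The 2 proteins that act directly on phosphorylated UPF1 thus both had less mRNA, with groups far apart relative to their spread.

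In the kinase complex, SMG9 had 13.6 and 12.3 CPM in siSTAU1, against 25.7 and 24.4 CPM in siCTRL. It fell to 51.5% of siCTRL (log2 fold change -0.96 ± 0.08 SE, edgeR adjusted p = 3.11e-06), with 1.76% of genes lower. SMG1, the kinase, had 45.3 and 40.2 CPM in siSTAU1, against 54.8 and 52.7 CPM in siCTRL, a fall to 79.5% (-0.33 ± 0.07 SE, edgeR adjusted p = 0.00171). SMG8, the partner of SMG9, had 29.2 and 30.5 CPM in siSTAU1, against 32.5 and 32.1 CPM in siCTRL. Its log2 fold change of -0.11 ± 0.06 SE was not called (edgeR adjusted p = 0.166). Within this complex, then, SMG9 and SMG1 passed the test and SMG8 did not; the difference between them was not itself tested.

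UPF1 had 83.25 and 83.65 CPM in siSTAU1, against 130.1 and 127.6 CPM in siCTRL. It fell to 64.7% of siCTRL (log2 fold change -0.63 ± 0.04 SE, edgeR adjusted p = 2.31e-07), and 4.92% of genes were lower. UPF2 had 41.5 and 35.9 CPM in siSTAU1, against 48.4 and 49.5 CPM in siCTRL, a fall to 79.1% (-0.34 ± 0.07 SE, edgeR adjusted p = 0.0023). UPF2 and SMG1 showed a wider gap between their siSTAU1 libraries than UPF1 did, with replicate 2 the lower.

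The paralogs UPF3A and UPF3B were the least settled. UPF3B had 12.4 and 11.3 CPM in siSTAU1, against 17.9 and 13.75 CPM in siCTRL, and fell to 74.5% (-0.43 ± 0.12 SE on the log2 scale, edgeR adjusted p = 0.0111). Without siCTRL replicate 1 the value was -0.22 and was not called (edgeR adjusted p = 0.199), in a fit with 1 siCTRL library that is assumed to vary like the siSTAU1 pair. UPF3A had 26.8 and 26.1 CPM in siSTAU1, against 29.8 and 29.2 CPM in siCTRL, and was not called (-0.16 ± 0.06 SE, edgeR adjusted p = 0.0599). Without siSTAU1 replicate 1, which leaves 1 siSTAU1 library, it was -0.19 (edgeR adjusted p = 0.0469).

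**Figure D2:**
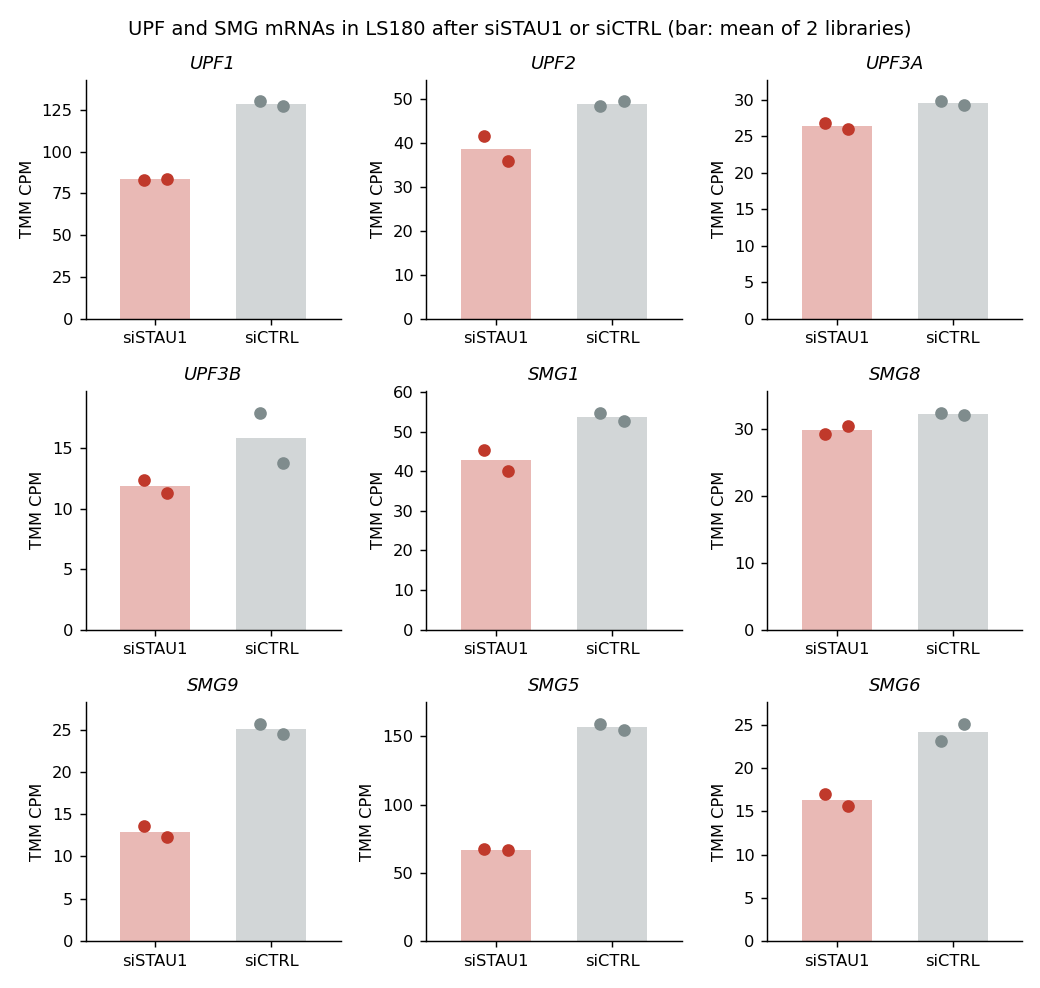
TMM-scaled CPM (y axis, from 0) of each gene in the 2 siSTAU1 and 2 siCTRL libraries of LS180; bars are means and points are libraries. SMG5 sits at 67.3 and 66.5 CPM in siSTAU1, against 159.3 and 154.7 CPM in siCTRL, while SMG8 sits at 29.2 and 30.5 CPM, against 32.5 and 32.1 CPM.

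Other parts of the pathway did not show one direction after siSTAU1. Over all genes tested 23.0% rose and 23.0% fell, with a median of 0.00. Of 13 further factors of nonsense-mediated decay, 2 rose and 5 fell (median log2 fold change -0.14). PNRC2, which joins UPF1 to decapping enzymes, rose to 261.5 ± 3.17 CPM in siSTAU1, against 192 ± 1.09 CPM in siCTRL (SD, n = 2 each; edgeR adjusted p = 1.3e-06). ICE1 fell to 23.6 ± 2.56 CPM, against 35.7 ± 0.655 CPM (edgeR adjusted p = 7.97e-05), and TELO2, a chaperone of kinases of the SMG1 family, to 51.9 ± 2.51 CPM, against 69.2 ± 3.24 CPM (edgeR adjusted p = 0.000122). Of 9 exon junction complex genes 3 rose and 3 fell (median -0.03): MAGOHB, a core subunit, rose 1.54-fold (edgeR adjusted p = 1.25e-05), and the peripheral factors ACIN1 and RNPS1 fell 1.40-fold (edgeR adjusted p = 1.97e-06) and 1.14-fold (edgeR adjusted p = 0.00135).

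Of 6 genes of translation termination, poly(A) binding and initiation, 2 rose and 2 fell (median 0.02), where 23.0% of all genes rose and 23.0% fell. PABPC4 rose 1.70-fold (edgeR adjusted p = 7.02e-08), while EIF4G1 fell 1.18-fold (edgeR adjusted p = 0.00054) and PABPC1 1.11-fold (edgeR adjusted p = 0.00724). Of 19 transcripts reported elsewhere as sensitive to the pathway, 6 rose and 5 fell, with a median of 0.03 beside 0.00 over all genes. BAG1 rose to 107 ± 1.73 CPM in siSTAU1, against 71.5 ± 2.21 CPM in siCTRL (edgeR adjusted p = 1.01e-06). ASNS rose to 129.9 ± 5.67 CPM, against 91.8 ± 5.16 CPM (edgeR adjusted p = 7.32e-06), and SLC7A11 fell to 65.2 ± 4.25 CPM, against 108 ± 0.576 CPM (SD, n = 2 each; edgeR adjusted p = 5.89e-07).

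The actinomycin D series asks which transcripts persist once transcription is blocked, in each line. Each value is a share of what RNA is left, so a rise in CPM is not new synthesis and a fall is not an absolute loss. Under scaling to ribosomal protein genes the median log2 fold change of all genes became -0.34 at 4 h in HCT116 and -0.54 at 4 h in LS180, beside 0.02 and 0.00 under TMM. Set against the median of all genes, each member's value moved by at most 0.05 among TMM, RLE, DESeq2, total library size and ribosomal scaling. The 2 h and 4 h comparisons share their 0 h libraries and are therefore given side by side.

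In HCT116, SMG8 fell and UPF3B and SMG9 rose at both times, and UPF3A and SMG5 rose at 4 h. At 2 h, 2 members rose and 1 fell, where 31.0% of the 17256 genes tested were called (13.8% higher and 17.1% lower). At 4 h, 4 rose and 1 fell, where 49.9% were called (26.2% higher and 23.7% lower). In LS180, SMG8, SMG6 and SMG9 fell at both times, SMG1 fell at 2 h, UPF3B rose at both times and UPF3A at 4 h. At 2 h, 1 member rose and 4 fell, where 37.4% of genes were called (13.5% higher and 23.9% lower). At 4 h, 2 rose and 3 fell, where 57.7% were called (26.6% higher and 31.1% lower). Libraries did not overlap with those at 0 h for 3 members at 2 h and 6 at 4 h in HCT116, as for 42.9% and 54.4% of all genes, and for 7 and 5 members in LS180, as for 55.2% and 63.4%. The medians over the 9 genes at 2 and 4 h were 0.01 and 0.14 in HCT116, beside 0.01 and 0.02 over all genes, and -0.15 and -0.06 in LS180, beside -0.02 and 0.00.

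SMG8, whose 3′ UTR site is printed above, had 63.4, 69.5 and 66.7 CPM at 0 h in HCT116, 35.9, 41.8 and 42.6 CPM at 2 h, and 21.9, 22.5 and 21.9 CPM at 4 h. SMG8 in LS180 had 34.7, 33.6 and 32.8 CPM at 0 h, 10.5, 9.97 and 10.8 CPM at 2 h, and 5.81, 5.14 and 5.70 CPM at 4 h. No time points overlapped in either line. Relative to 0 h, 60.3% remained at 2 h (log2 fold change -0.73 ± 0.06 SE, edgeR adjusted p = 4.42e-08) and 33.2% at 4 h (-1.59 ± 0.07 SE, edgeR adjusted p = 6.31e-13) in HCT116. In LS180 31.0% remained at 2 h (-1.69 ± 0.07 SE, edgeR adjusted p = 4.81e-13) and 16.5% at 4 h (-2.60 ± 0.07 SE, edgeR adjusted p = 2.1e-15). Lower values at 4 h were held by 6.18% of genes in HCT116 and 4.08% in LS180.

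SMG9 went opposite ways in the 2 lines. It had 25.3, 26.6 and 25.1 CPM at 0 h in HCT116, 30.1, 32.4 and 30.2 CPM at 2 h, and 31.8, 35.3 and 34.7 CPM at 4 h. LS180 libraries held 19.7, 19.8 and 20.1 CPM at 0 h, 15.2, 15.99 and 16.8 CPM at 2 h, and 15.5, 11.4 and 12.3 CPM at 4 h. Neither line's treated libraries overlapped its 0 h libraries. SMG9 rose in HCT116 by 0.27 ± 0.08 at 2 h and 0.40 ± 0.08 at 4 h (log2, SE; edgeR adjusted p = 0.0189 and 0.000436), but these values were 0.04 and 0.00 under ribosomal scaling, and the 2 h call was lost without replicate 3 at 0 h (0.25, edgeR adjusted p = 0.0596) or replicate 2 or 3 at 2 h (0.21 and 0.26, edgeR adjusted p = 0.135 and 0.0694). Leaving out the HCT116 libraries numbered 1 gave 0.27 at 2 h with an edgeR adjusted p of 0.0521, and an effective length offset gave 0.14 (edgeR adjusted p = 0.441).

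In LS180 SMG9 fell by 0.31 ± 0.08 at 2 h and 0.60 ± 0.09 at 4 h (log2, SE; edgeR adjusted p = 0.0071 and 7.12e-06). The 2 h call was lost without LS180 2 h replicate 2 (-0.19, edgeR adjusted p = 0.155), and RLE, DESeq2, no filter and a 1 CPM filter also ended it. The 4 h value was -0.61 without LS180 4 h replicate 1 (edgeR adjusted p = 5.07e-07) and -0.22 with that replicate as the only 4 h library; the 2 h value was then -0.18.

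SMG1, the kinase of the same complex, had 90.7, 94.8 and 91.3 CPM at 0 h in HCT116, 86.9, 96.2 and 88.5 CPM at 2 h, and 101, 94.6 and 96.1 CPM at 4 h, and was called at neither time. LS180 had 62.7, 72.9 and 65.9 CPM at 0 h, 50.2, 50.4 and 55.1 CPM at 2 h, and 74.6, 58.0 and 57.4 CPM at 4 h. SMG1 fell at 2 h in LS180 (log2 fold change -0.37 ± 0.08 SE, edgeR adjusted p = 0.00169), a call lost without LS180 2 h replicate 2 (-0.23, edgeR adjusted p = 0.0722) or with an effective length offset (-0.17, edgeR adjusted p = 0.0587), and was not called at 4 h. The 4 h libraries spread the most, with replicate 1 above all 0 h libraries. Without the LS180 4 h libraries numbered 2 and 3, which enter the shared filter and scaling, the 2 h value was -0.24 (edgeR adjusted p = 0.00302).

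SMG1 shares near-identical sequence with 7 pseudogene rows, so its own level is uncertain. Those rows summed to 87.0 ± 0.675, 48.2 ± 0.913 and 45.3 ± 0.988 CPM at 0, 2 and 4 h in HCT116, and to 78.6 ± 4.81, 43.3 ± 0.401 and 46.9 ± 2.01 CPM in LS180 (SD, n = 3 each). They held 48.5%, 34.8% and 31.8% of the combined signal in HCT116 and 54.0%, 45.5% and 42.7% in LS180. The sum of SMG1 and the 7 rows, an alternative chosen after the values were seen, fell at 2 h in HCT116 (-0.37, edgeR adjusted p = 0.000196), at 4 h in HCT116 (-0.33, edgeR adjusted p = 0.000228) and at 4 h in LS180 (-0.40, edgeR adjusted p = 2.17e-05), 3 comparisons in which SMG1's own row was not called. In the siRNA experiment the pseudogene rows held 22.2% in both groups.

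SMG6, the endonuclease, had 20.4, 22.6 and 23.0 CPM at 0 h in HCT116, 17.3, 21.0 and 20.8 CPM at 2 h, and 18.6, 20.3 and 20.0 CPM at 4 h, and was called at neither time. The LS180 values were 16.03, 15.9 and 14.6 CPM at 0 h, 10.8, 12.3 and 13.1 CPM at 2 h, and 11.8, 8.85 and 9.19 CPM at 4 h, all below 0 h. SMG6 fell there by 0.36 ± 0.10 at 2 h and 0.64 ± 0.10 at 4 h (log2, SE; edgeR adjusted p = 0.0097 and 3.49e-05). The 2 h call was lost without LS180 2 h replicate 1 (-0.29, edgeR adjusted p = 0.0621) or 2 (-0.25, edgeR adjusted p = 0.11), and under RLE (-0.24, edgeR adjusted p = 0.0639), DESeq2 (adjusted p = 0.0578) or a 1 CPM filter (-0.24, edgeR adjusted p = 0.0577). The 4 h value was -0.65 without LS180 4 h replicate 1 (edgeR adjusted p = 1.83e-05) and -0.26 with that replicate as the only 4 h library; the 2 h value was then -0.23.

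SMG5 had 96.8, 104 and 109 CPM at 0 h in HCT116, 103, 124 and 119 CPM at 2 h, and 115, 140.2 and 137 CPM at 4 h. In LS180 it had 147, 137 and 129 CPM at 0 h, 137, 144 and 147 CPM at 2 h, and 154, 154 and 145 CPM at 4 h, and was called at neither time. SMG5 rose at 4 h in HCT116 (log2 fold change 0.34 ± 0.08 SE, edgeR adjusted p = 0.00147), a direction that turned to -0.06 under ribosomal scaling. Its 2 h value in HCT116, 0.16 ± 0.08 SE, was not called (edgeR adjusted p = 0.145) but was with the replicate number as a block (0.15, edgeR adjusted p = 0.0359), without HCT116 2 h replicate 1 (0.23, edgeR adjusted p = 0.0396) and without all HCT116 libraries numbered 1 (0.19, edgeR adjusted p = 0.0376). The HCT116 libraries numbered 1 were the lowest for SMG5 at each time.

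UPF3B had 16.9, 17.5 and 16.03 CPM at 0 h in HCT116, 21.97, 22.6 and 21.5 CPM at 2 h, and 26.4, 28.4 and 30.1 CPM at 4 h. In LS180 it had 14.8, 13.6 and 13.98 CPM at 0 h, 17.5, 17.2 and 18.7 CPM at 2 h, and 21.0, 19.0 and 19.3 CPM at 4 h. It was the member that held up best, with no overlap between times in either line. In HCT116 it rose by 0.39 ± 0.06 at 2 h and 0.75 ± 0.06 at 4 h (log2, SE; edgeR adjusted p = 0.000123 and 1.23e-08), and 97.1% of genes were lower at 4 h. In LS180 it rose by 0.33 ± 0.06 at 2 h and 0.48 ± 0.06 at 4 h (edgeR adjusted p = 0.000442 and 3.51e-06), although under ribosomal scaling the LS180 values were 0.10 and -0.06, and the HCT116 values 0.16 and 0.35 (edgeR adjusted p = 0.366 and 0.0179).

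Its paralog UPF3A had 10.7 CPM in each HCT116 library at 0 h, 11.4, 11.3 and 10.5 CPM at 2 h, and 12.5, 14.04 and 13.4 CPM at 4 h. In LS180 it had 12.7, 12.3 and 12.1 CPM at 0 h, 13.3, 12.8 and 13.02 CPM at 2 h, and 14.3, 13.9 and 15.8 CPM at 4 h. UPF3A rose at 4 h in HCT116 (log2 fold change 0.31 ± 0.06 SE, edgeR adjusted p = 0.000481) and in LS180 (0.24 ± 0.06 SE, edgeR adjusted p = 0.00304), but under ribosomal scaling the values were -0.08 and -0.31. Without LS180 4 h replicate 1 the LS180 value was 0.39 (edgeR adjusted p = 0.000101). Its 3 pseudogene rows held at most 1.0% of their combined signal in any group.

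UPF1 and UPF2 were called at neither time in either line. UPF1 had 120.2, 127 and 130.3 CPM at 0 h in HCT116, 114, 136 and 128 CPM at 2 h, and 125, 146 and 145 CPM at 4 h. In LS180 UPF1 had 112, 107 and 95.9 CPM at 0 h, 99.9, 94.4 and 101 CPM at 2 h, and 109.5, 98.9 and 101 CPM at 4 h. The groups of UPF1 overlapped throughout. At 4 h in HCT116 UPF1 passed with the replicate number as a block (log2 fold change 0.13, edgeR adjusted p = 0.044, against 0.14 and 0.138 without the block) and without the HCT116 libraries numbered 1 (0.18, edgeR adjusted p = 0.044), and its value was -0.26 under ribosomal scaling. UPF2 ranged over 55.5 to 62.3, 55.4 to 61.6 and 60.3 to 65.1 CPM at 0, 2 and 4 h in HCT116, and over 48.1 to 53.6, 44.8 to 48.0 and 46.0 to 51.4 CPM in LS180.

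**Figure D3:**
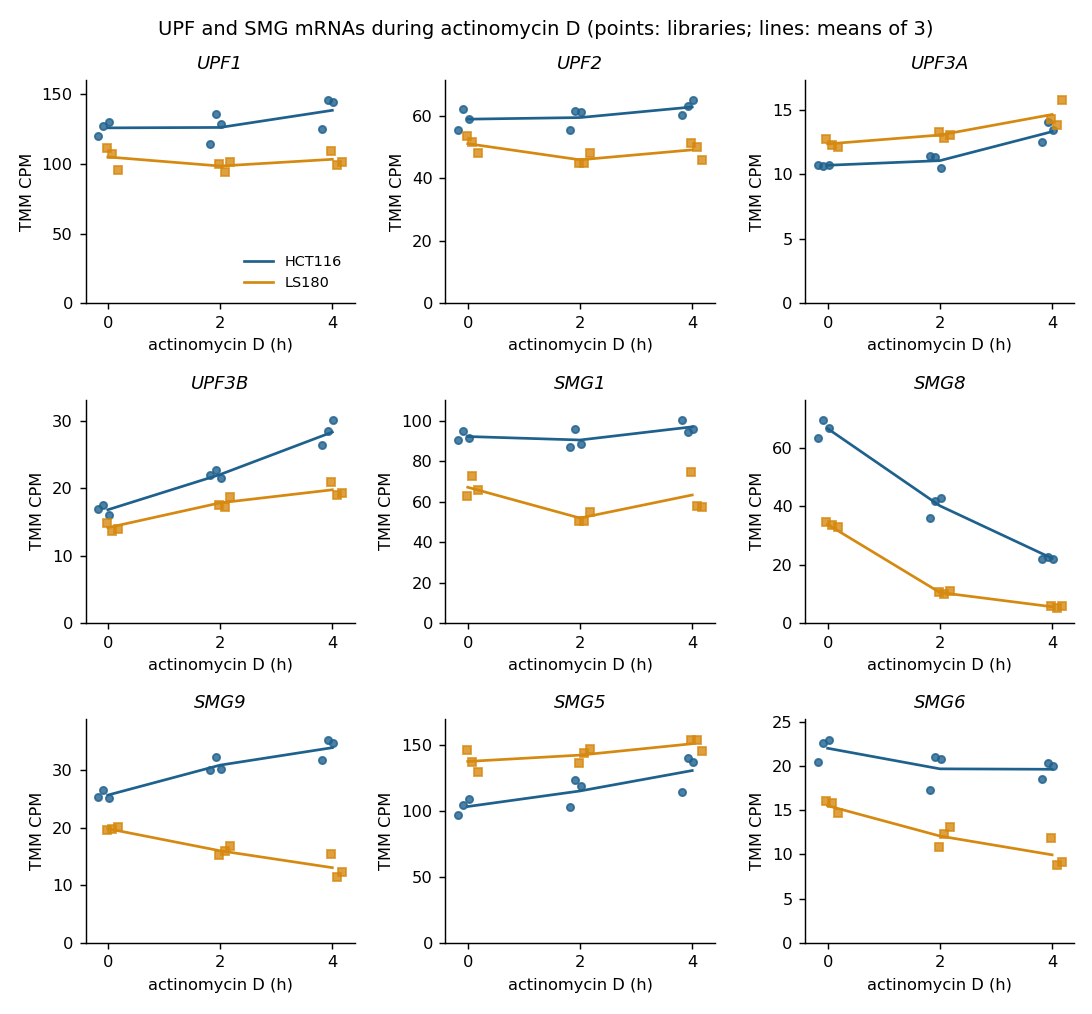
TMM-scaled CPM (y axis, from 0) against hours of actinomycin D (x axis) for each gene; circles are HCT116 and squares LS180 libraries, and lines join the means of 3. SMG8 falls in both lines, SMG9 separates them (33.9 CPM in HCT116 against 13.1 CPM in LS180 at 4 h), and UPF3B climbs in both, although its 4 h value in LS180 turned to -0.06 (log2) under ribosomal scaling.

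The lines were then compared directly. The difference of the 2 h changes, HCT116 minus LS180, was called for SMG8 (log2 difference 0.96 ± 0.09 SE, edgeR adjusted p = 4.6e-06) and SMG9 (0.58 ± 0.12 SE, edgeR adjusted p = 0.00413), which is 2 of 9 members where 5.64% of genes were called (5.24% higher and 0.394% lower). The difference of the 4 h changes was called for SMG8 (1.01 ± 0.10 SE, edgeR adjusted p = 1.22e-06), SMG9 (1.00 ± 0.12 SE, edgeR adjusted p = 1.09e-05) and SMG6 (0.47 ± 0.14 SE, edgeR adjusted p = 0.0335), which is 3 of 9 where 13.7% were called (12.3% higher and 1.33% lower). That split depends on the filter and on single libraries: 1253 genes were higher and 1757 lower with a 1 CPM filter, and 1919 higher and 2536 lower without LS180 4 h replicate 1. Both regulatory partners of SMG1 thus kept relatively more mRNA in HCT116 than in LS180, SMG8 through a smaller fall and SMG9 through opposite directions. The medians over the 9 genes were 0.17 at 2 h and 0.20 at 4 h, beside 0.05 and 0.06 over all genes.

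The SMG8 difference and the SMG9 difference at 4 h were called under every alternative run that kept at least 2 libraries in each group. With LS180 4 h replicate 1 as the only LS180 4 h library, SMG9 was 0.59 at 4 h. The SMG9 difference at 2 h was lost without LS180 2 h replicate 2 (0.43, edgeR adjusted p = 0.108) and without HCT116 2 h replicate 2 (0.39, edgeR adjusted p = 0.143) or 3 (0.44, edgeR adjusted p = 0.0964). It was also lost with an effective length offset (edgeR adjusted p = 0.0764), total library size (0.111) and ribosomal scaling (0.238). The SMG6 difference was lost on leaving out any of 8 libraries: LS180 replicates 1 and 2 at 0 h and 2 and 3 at 4 h, and HCT116 replicate 1 at 0 h and 1, 2 and 3 at 4 h. Its lowest value among these was 0.28, and it was 0.46 without LS180 4 h replicate 1 (edgeR adjusted p = 0.0154) and 0.06 with that replicate as the only LS180 4 h library. RLE, DESeq2, no filter, a 1 CPM filter, total library size and ribosomal scaling also ended that call. UPF3B fell short at 4 h (0.27 ± 0.09 SE, edgeR adjusted p = 0.0548). It passed with the replicate number as a block (0.27, edgeR adjusted p = 0.0429) and without the HCT116 libraries numbered 1 (0.33, edgeR adjusted p = 0.0292). The UPF3B difference was 0.155 without LS180 4 h replicate 1 (edgeR adjusted p = 0.244), and 0.02 with that replicate as the only LS180 4 h library.

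At 0 h all 9 mRNAs differed between HCT116 and LS180, 7 higher and 2 lower in HCT116, where 76.3% of all genes were called (33.7% higher and 42.6% lower). The median log2 fold change of the 9 was 0.26, beside -0.10 over all genes. SMG8 differed most, at 66.5 ± 3.06 CPM in HCT116 and 33.7 ± 0.943 CPM in LS180 (SD, n = 3 each; log2 fold change 0.98 ± 0.06 SE, edgeR adjusted p = 7.04e-11). SMG6 (1.42-fold, edgeR adjusted p = 0.000163), SMG1 (1.37-fold, edgeR adjusted p = 5.86e-05), SMG9 (1.29-fold, edgeR adjusted p = 0.000479), UPF1 (1.20-fold, edgeR adjusted p = 0.00386), UPF3B (1.19-fold, edgeR adjusted p = 0.00193) and UPF2 (1.15-fold, edgeR adjusted p = 0.0059) were also higher in HCT116. No libraries of the 2 lines overlapped for any member, as for 79.8% of all genes.

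SMG5 was lower in HCT116, at 103 ± 6.16 CPM, against 138 ± 8.77 CPM in LS180 (SD, n = 3 each; log2 fold change -0.41 ± 0.08 SE, edgeR adjusted p = 0.000111), although it was not called under ribosomal scaling (-0.14, edgeR adjusted p = 0.318). UPF3A was lower in HCT116 under TMM, at 10.7 ± 0.026 CPM, against 12.4 ± 0.324 CPM in LS180 (-0.21 ± 0.06 SE, edgeR adjusted p = 0.00711), but the direction turned under ribosomal scaling (0.06) and the call was lost under RLE, DESeq2, no filter, a 1 CPM filter, total library size, only the groups compared, and without the LS180 4 h libraries numbered 2 and 3 (-0.04, edgeR adjusted p = 0.517). Without those libraries, which enter the shared filter and scaling, SMG5 was -0.25, and UPF1, UPF2 and UPF3B were 0.43, 0.37 and 0.41 (edgeR adjusted p of at most 0.0142). The paralogs UPF3A and UPF3B thus lay on opposite sides of 0 under TMM.

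**Figure D4:**
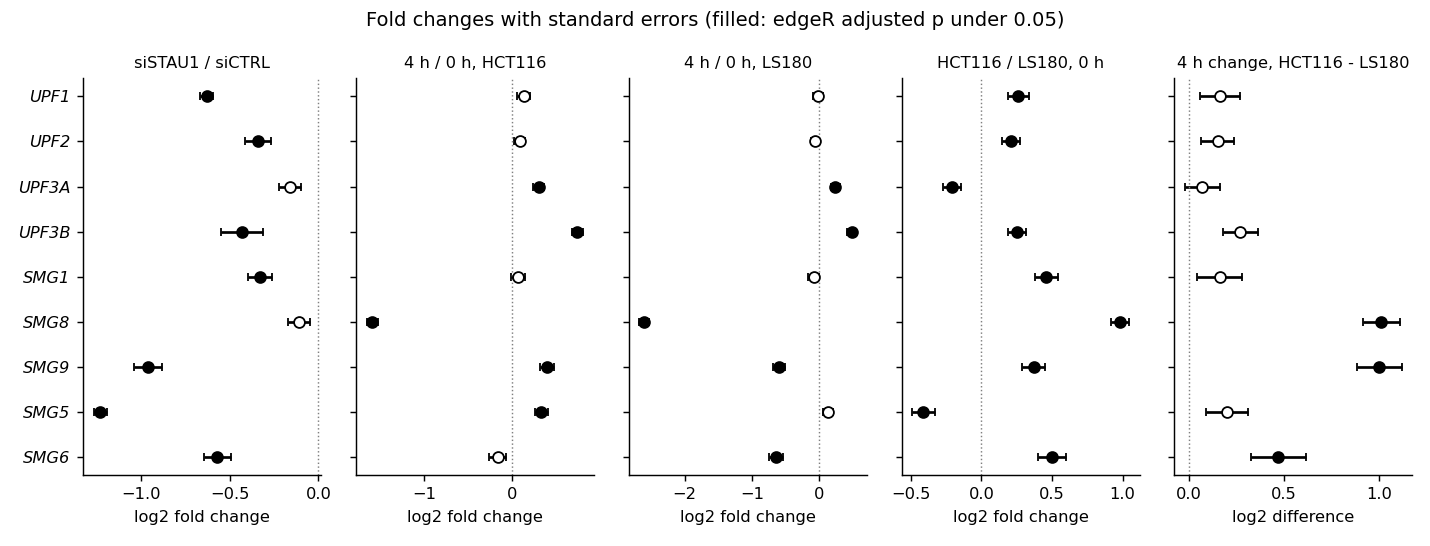
Log2 fold changes (x axes, which differ in range between panels) with standard errors for the 9 genes in 4 comparisons, and on the right the log2 difference of the 4 h change between lines; filled points were called by edgeR at an adjusted p under 0.05. SMG5 (-1.23) and SMG9 (-0.96) lie farthest left after siSTAU1, and SMG8 (1.01) and SMG9 (1.00) farthest right in the line difference. Under ribosomal scaling UPF3B (0.35) and SMG9 (0.00), both in HCT116, are the only values of 4 h against 0 h not below 0. For HCT116 against LS180 at 0 h, UPF3A goes from -0.21 under TMM to 0.06 under ribosomal scaling.

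**Figure D5:**
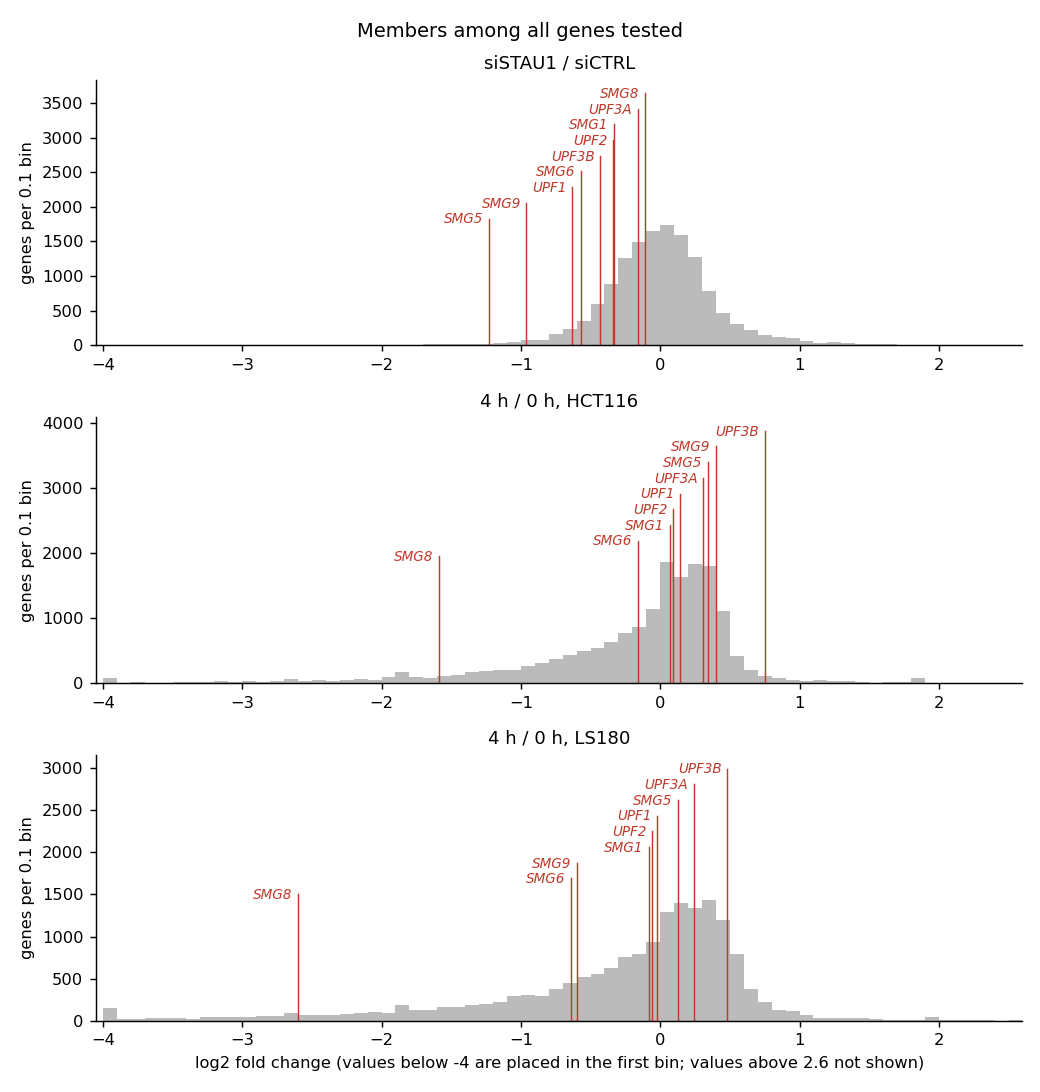
Number of genes tested (y axis) per 0.1 of log2 fold change (x axis) as grey bars, with red lines at the 9 genes, whose heights only separate the names. After siSTAU1 all 9 lie below 0; at 4 h of actinomycin D SMG8 lies far below the bulk of genes in HCT116 (-1.59) and LS180 (-2.60) under every scaling run, while of the other members only UPF3B (0.35) and SMG9 (0.00), both in HCT116, do not lie below 0 under ribosomal scaling.

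The wider pathway gave a background for these changes, with the genes of these lists read under TMM scaling only. Under ribosomal scaling, 111 of all genes tested were called higher and 7339 lower at 4 h in HCT116. In LS180 these counts were 123 and 10735. Among 13 further decay factors in HCT116, 3 rose and 1 fell at 2 h, where 13.8% of all genes rose and 17.1% fell. At 4 h, 5 rose and 2 fell, where 26.2% of all genes rose and 23.7% fell. In LS180, 2 rose and 3 fell at 2 h, where 13.5% of all genes rose and 23.9% fell. At 4 h, 4 rose and 6 fell there, where 26.6% of all genes rose and 31.1% fell. PNRC2 fell in both lines, to 54.3 ± 1.29 CPM at 4 h, against 87.2 ± 2.93 CPM at 0 h, in HCT116 (edgeR adjusted p = 4.76e-09) and to 83.9 ± 4.80 CPM at 4 h, against 174 ± 9.39 CPM at 0 h, in LS180 (edgeR adjusted p = 4.34e-12). TTI2, a partner of TELO2, fell 2.76-fold at 4 h in LS180 (edgeR adjusted p = 1.27e-10), and its 4 h change differed between lines by 1.19 (log2, HCT116 minus LS180, edgeR adjusted p = 4.59e-06). RUVBL1, an ATPase, rose 1.52-fold (edgeR adjusted p = 3.16e-06) and MOV10, an RNA helicase that binds UPF1, rose 1.34-fold (edgeR adjusted p = 1.09e-05) at 4 h in HCT116.

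Of 9 exon junction complex genes, 6 rose and 1 fell at 4 h in HCT116, where 26.2% of all genes rose and 23.7% fell. In LS180, 4 rose and 1 fell at 4 h, where 26.6% of all genes rose and 31.1% fell. The one that fell in each was PYM1, which disassembles the complex, 1.80-fold in HCT116 (edgeR adjusted p = 3.08e-08) and 2.68-fold in LS180 (edgeR adjusted p = 1.02e-11). Of the 6 genes of translation termination, poly(A) binding and initiation, GSPT2, a release factor, fell 5.98-fold at 4 h in LS180 (edgeR adjusted p = 5.72e-09). It had 0 counts in HCT116 at 0 h, at least 804-fold lower than in LS180 taking 3 counts in the whole group as the floor. PABPC1, the poly(A)-binding protein, rose 1.31-fold in HCT116 (edgeR adjusted p = 1.65e-05) and 1.43-fold in LS180 (edgeR adjusted p = 3.36e-07) at 4 h.

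Of the 19 reported targets, 2 rose and 14 fell at 4 h in each line. Over all genes 26.2% rose and 23.7% fell in HCT116, and 26.6% rose and 31.1% fell in LS180. The medians of the targets were -0.66 in HCT116 and -0.89 in LS180, beside 0.02 and 0.00 over all genes. MAP3K14, a kinase, fell to 1.604 ± 0.255 CPM at 4 h, against 8.96 ± 0.489 CPM at 0 h, in HCT116 (SD, n = 3 each; edgeR adjusted p = 9.3e-12). CDKN1A, a cell-cycle inhibitor, fell to 21.8 ± 2.69 CPM at 4 h, against 159.7 ± 2.10 CPM at 0 h, in LS180 (SD, n = 3 each; edgeR adjusted p = 3.85e-12). Its 4 h change differed by 2.22 between lines (log2, HCT116 minus LS180, edgeR adjusted p = 4.75e-07). At 0 h in HCT116 against LS180, 8 of the 13 further factors were higher and 3 lower, as were 7 and 2 of the 9 exon junction genes, where 33.7% of all genes were higher and 42.6% lower. The medians of these lists were 0.37 and 0.35, beside -0.10 over all genes. EIF4A3, the core helicase of that complex, was 1.96-fold higher in HCT116 (edgeR adjusted p = 1.62e-10).

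The tables also give, per gene and library, a mean transcript length weighted by the estimated abundance of each isoform, a readout on which the genes had not been chosen. It did not overlap between siSTAU1 and siCTRL for 3 of the 9 members, where 31.8% of all genes did not overlap, nor between 0 h and 2 or 4 h for 2 and 3 members in HCT116 (14.6% and 17.3% of all genes) and 3 and 2 in LS180 (16.2% and 18.5%). Between the lines at 0 h it did not overlap for 3 members (27.3% of all genes). UPF1 had a longer mean after siSTAU1, 5215 and 5243 bases, against 4947 and 5090 bases in siCTRL. It was likewise longer under actinomycin D. In HCT116 it averaged 4919, 5159 and 5208 bases at 0, 2 and 4 h, and in LS180 4920, 5242 and 5228 bases, with no overlap between either treated time and 0 h in either line. SMG1 went the other way in LS180, at 10012 bases at 2 h and 9669 bases at 4 h, against 11510 bases at 0 h, again with no overlap. SMG5 was longer in HCT116 at both treated times, 4439 and 4443 bases, against 4302 bases at 0 h. SMG6 was shorter after siSTAU1, at 4512 and 4625 bases, against 4833 and 4927 bases. With 2 against 2 or 3 against 3 libraries an exact two-sided permutation test cannot go below 0.333 or 0.1, so these are descriptions.

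Reads that match a neighbouring gene could bear on 2 members. SMG8 overlaps AC099850.2 on the same strand (GRCh38), a row that held at most 2.26% of the pair's combined mean signal in any group. SMG6 overlaps HIC1 and SRR on the opposite strand, and SRR had 4.05 ± 0.176 CPM at 0 h and 4.31 ± 0.52 CPM at 4 h in HCT116, and 9.49 ± 0.476 and 10.9 ± 0.619 CPM in LS180, while SMG6 fell there. The strand setting of the counting is not given in the sources used here, so its part in the SMG6 values was not tested.

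Across the 18 actinomycin D libraries, the gene most like each member, among 10130 named genes averaging at least 5 CPM, was found by Pearson's r of log2 CPM, as a description. The libraries share 2 lines and 3 times, so high values are common. SMG8 was most like FBXO30 (r = 0.994), SMG6 like NEURL4 (0.989), SMG9 like SUPT20H (0.983), UPF1 like ATAD3B (0.967), UPF3B like ADD1 (0.966), SMG1 like the pseudogene LRRC37A4P (0.966), SMG5 like PPP2R4 (0.956) and UPF3A like COMMD4 (0.946). UPF2 was the only member whose nearest gene was another member, UPF1 (0.958). Within the set the profiles of UPF3A and SMG8 ran most opposite (r = -0.87).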

How the data were processed

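Libraries were strand-specific, made from mRNA in the siRNA experiment and from total RNA with actinomycin D, as the labels' protocols say. Per the submitters' processing notes, cutadapt, STAR 2.7 and RSEM 1.3.1 were used, with hg38 in the siRNA experiment and hg19 in the other. The authors' deposited tables hold expected counts, which divide a read among the genes it matches, TPM, and transcript lengths in bases. The sources used here give neither annotation release nor strand setting. The experiments differ in build and RNA, so their levels were not compared.

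Rounded expected counts entered edgeR 4.0.16 in R 4.3.3 (TMM, filterByExpr, glmQLFit and glmQLFTest, two-sided, Benjamini-Hochberg over all genes tested, threshold 0.05). The siRNA fit had 14073 genes and 2 residual degrees of freedom, and the actinomycin D fit 17256 genes, 18 libraries and 12. SE is the absolute log2 fold change over the square root of F. The fits were tested on simulated data.

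Members and gene lists were chosen with earlier results of these data known. Named were the 9 members, STAU1, pseudogene copies, at most 3 called genes per further list and comparison with the smallest adjusted p, and each member's most similar gene. Genes named from the lists are a selection of these, chosen after their values were seen. ICE1 and PYM1 were matched by Ensembl identifier where older symbols stood.

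Same-numbered HCT116 libraries deviated together (9 pairs, r 0.231 to 0.71), and their numbers were taken to pair them. HCT116 replicates 2 and 3 of different times also deviated together across numbers, at r 0.023 to 0.539. For example, 0 h replicate 2 had r = 0.539 with 2 h replicate 3, against 0.253 with 2 h replicate 2. What the numbers mainly set apart was replicate 1, and a pairing within replicates 2 and 3 is not settled. Same-numbered libraries of LS180 (-0.436 to 0.268) and of the siRNA experiment (-0.01) did not deviate together. Alternatives were RLE, DESeq2 1.42.0, total library size or ribosomal protein scaling, other filters, an effective length offset, the replicate block, subsets of libraries, and SMG1 with its pseudogenes.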

Additional observations from a re-analysis of the deposited data

Results flagged for a closer look

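Of the 9 genes, 3 had an actinomycin D change that differed between HCT116 and LS180 by the test of the difference itself. The log2 difference, HCT116 minus LS180, was 0.96 for SMG8 and 0.58 for SMG9 at 2 h. At 4 h it was 1.01 for SMG8, 1.00 for SMG9 and 0.47 for SMG6. The SMG9 call at 2 h was lost with an effective length offset, total library size or ribosomal scaling, and without some single libraries. The SMG6 call was lost under RLE, DESeq2, the other filters, total library size or ribosomal scaling, and without most single libraries given above. SMG9 is the case with opposite directions, since 132% of its 0 h level remained at 4 h in HCT116 and 65.9% in LS180, relative to all transcripts; under ribosomal scaling the HCT116 value was near 0 (0.00, log2) and the LS180 value more negative (-1.13). Without LS180 4 h replicate 1 the 4 h differences were 0.46 for SMG6, 0.98 for SMG9 and 0.89 for SMG8. With that replicate as the only LS180 4 h library, assumed to vary like the other groups, they were 0.06, 0.59 and 0.78.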

How the results depend on the processing

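After siSTAU1 the count lower, 7, was 6 to 8 on leaving out single libraries. In HCT116 at 2 h the count higher, 2 under TMM, was 1 with an effective length offset or total library size, 0 under ribosomal scaling, and 1 to 3 on leaving out single libraries; the count lower, 1, was 2 with SMG1 pseudogene rows summed. At 4 h the count higher, 4, was 1 with total library size or ribosomal scaling, and the count lower, 1, was 3 under ribosomal scaling and 2 with pseudogene rows summed or with only the groups compared. In LS180 at 2 h the count higher, 1, was 2 under RLE, DESeq2, no filter, the 1 CPM filter or without the LS180 4 h libraries numbered 2 and 3, 0 under ribosomal scaling, and 1 to 2 on leaving out single libraries; the count lower, 4, was 2 under RLE, DESeq2 or the 1 CPM filter, and 1 to 5 on leaving out single libraries. At 4 h the count higher, 2, was 1 with total library size and 0 under ribosomal scaling, where 8 were lower, against 3. Without LS180 4 h replicate 1 the 4 h count higher in LS180 was 3 and the count lower stayed at 3. Between lines at 0 h the count lower, 2, was 0 under ribosomal scaling and 1 under RLE, DESeq2, no filter, the 1 CPM filter, total library size, only the groups compared or without the LS180 4 h libraries numbered 2 and 3. The count of 2 h line differences, 2, was 1 with an effective length offset, total library size or ribosomal scaling, and 1 to 2 on leaving out single libraries. The count of 4 h line differences, 3, includes SMG6, whose call was lost under the settings given above. Ribosomal scaling reversed UPF3B (-0.058) and UPF3A (-0.308) at 4 h in LS180, UPF3A (-0.084), SMG5 (-0.064) and UPF1 (-0.264) at 4 h and SMG5 (-0.071) at 2 h in HCT116, and UPF3A (0.064) between lines. That scaling expresses every gene relative to those genes; the cause of the moves was not tested. Of 765 values of the 44 member results printed with a fold, 689 kept direction and call, 59 lost the call, 10 gained it and 7 reversed; of 576 values of the 28 results not called, 442 kept direction and no call, 27 gained a call and 107 changed sign. The share of calls that were higher, 36.1% at 2 h and 46.1% at 4 h in LS180 under TMM, was 59.1% and 56.7% under RLE, 61.1% and 58.4% with the 1 CPM filter, 22.4% and 22.7% with total library size and 0.952% and 1.13% under ribosomal scaling. In HCT116, 44.7% at 2 h and 52.5% at 4 h became 20.4% and 34.0% with total library size and 0.797% and 1.49% under ribosomal scaling, and between lines at 0 h 44.2% became 57.9% under ribosomal scaling. For the line difference at 4 h, 90.3% became 77.1% under RLE, 72.2% under DESeq2, 58.2% with no filter, 41.6% with the 1 CPM filter, 43.1% without LS180 4 h replicate 1 and 54.0% to 61.0% without any 1 HCT116 4 h library. At 2 h, 93.0% became 83.2%, 78.9%, 66.3% and 67.3% under RLE, DESeq2, no filter and the 1 CPM filter, and 76.8% without LS180 2 h replicate 2. The replicate block, where siRNA numbers share only a name, called UPF3A after siSTAU1 (-0.16, adjusted p = 0.043), and beside the HCT116 results given with it changed no other HCT116 call. In LS180, whose numbers do not pair, it gave 5 lower at 2 h and 3 higher at 4 h. Precision is limited by 2 or 3 libraries a group and by counts as low as those of SMG8 at 4 h in LS180.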
